A study of Mus musculus with 12 samples.

Results

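Peg10, Sgce, Mest and Copg2 are neighbours in a pair of imprinted domains on mouse chromosome 6. The table rows inside these genes or within 5 kb of them were taken, which gave 47 cytosine positions at CpGs of the 421177 in the deposited methylation table. Rows with missing values were kept, and 40 of the 47 had a value in every sample. The genes were selected on the maternal diet comparison of these libraries, in which the methylation percentages of a stretch at the start of Peg10 had been lower after a high-fat diet. Every diet value below is therefore a description, and the tests concern sex and the diet-by-sex interaction, which did not enter the choice.

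DNA came from the left ventricle of wild-type FVB/N mice at 3 weeks of age, the time of weaning, and was read by reduced representation bisulfite sequencing (RRBS). In this assay the enzyme MspI cuts at CCGG, and bisulfite leaves methylated cytosines readable as cytosine while unmethylated ones are read as thymine. Mothers of the high-fat diet group (HFD) ate Teklad high-fat chow from 6 weeks of age, mothers of the regular diet group (RD) ate PicoLab laboratory chow, and both were mated after 8 weeks with RD-fed males of like age and kept on their diets. HFD offspring were 3 females and 3 males, and RD offspring were 4 females and 2 males. Mothers are not named, so litter mates may be counted as separate replicates, and p-values measure the spread between these samples only.

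In imprinted genes one parental copy is active and the other is silent, and a CpG-rich stretch that gained methylation in one germ line tells the copies apart. Peg10, Sgce and Mest are expressed from the paternal copy, and the methylated copy at their starts is the maternal one, so both copies together are known to read near the middle of the scale. Peg10 derives from a retrotransposon and is needed for the placenta. Sgce encodes epsilon-sarcoglycan, a membrane protein of the dystrophin-associated complex of muscle, and Mest encodes an enzyme-like protein of the alpha/beta hydrolase fold that is linked to growth and to fat tissue expansion. Copg2 encodes a gamma subunit of the coat of Golgi transport vesicles and overlaps the tail of Mest by 913 bp in the RefSeq annotation. The deposited percentages do not separate the parental copies.

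Between 385299 and 417081 positions had a value in a sample, and Pearson's r across 306534 autosomal positions was 0.973 to 0.986 between samples. Mean methylation of the X chromosome was at least 53.0% in every female and at most 46.9% in every male. The table used here gives percentages without read counts, so depth and counting error of a single value are unknown. Library numbers were 2 to 8 in HFD and 9 to 14 in RD, and the part of library order in a diet difference cannot be told apart from that of the diet. The tissue label could be examined only through 5 of 10 cardiac muscle genes with at least 3 rows near their ends, from Ryr2 at 2.0% to Nppa at 73.5%. The skeletal muscle, liver and blood genes listed had fewer than 3 rows each.

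The 47 rows fell into 7 regions separated by more than 1000 bp. Coordinates are those deposited, in mm10 (GRCm38). The core that Peg10 and Sgce share held 14 rows at chr6:4747355-4747490. These genes are transcribed away from each other, and their annotated ends lie 102 bp apart. The first row of the core is 49 bp inside Peg10 and 151 bp outside Sgce. Within Sgce, 6 rows lay at chr6:4733631-4733820, and within Peg10, 5 rows lay at chr6:4755893-4756673. Mest held a pair of rows at 30735294 and 30735330 and 16 rows at chr6:30738074-30738388, which start 24 bp after its second annotated start at 30738050. Copg2 held 1 interior row at 30804776 and 3 rows at chr6:30896398-30896419, which are 396 to 417 bp inside its start. The RefSeq gene table used here has no exons, so exon, intron and UTR positions were not assigned.

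Promoter sequences were found for 2 of the 4 members, Mest and Copg2, and both are shown because their rows lay at opposite ends of the methylation scale. They are RefSeq promoters of GRCm38.p6, 5′ to 3′, with CpG dinucleotides in capitals. The Mest sequence is chr6:30737800-30738099 on the plus strand, and 2 of the deposited rows fall in it, at bases 275 and 292 counted from 1 at its 5′ end. The Copg2 sequence is chr6:30896745-30897044 on the minus strand, and the nearest deposited row is 326 bp away.
Mest: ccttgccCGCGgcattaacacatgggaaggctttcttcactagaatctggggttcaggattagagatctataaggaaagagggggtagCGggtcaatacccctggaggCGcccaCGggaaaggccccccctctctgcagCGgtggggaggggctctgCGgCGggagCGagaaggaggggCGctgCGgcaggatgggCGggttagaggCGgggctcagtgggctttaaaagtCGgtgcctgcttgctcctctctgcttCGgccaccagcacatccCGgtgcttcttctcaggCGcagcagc
Copg2: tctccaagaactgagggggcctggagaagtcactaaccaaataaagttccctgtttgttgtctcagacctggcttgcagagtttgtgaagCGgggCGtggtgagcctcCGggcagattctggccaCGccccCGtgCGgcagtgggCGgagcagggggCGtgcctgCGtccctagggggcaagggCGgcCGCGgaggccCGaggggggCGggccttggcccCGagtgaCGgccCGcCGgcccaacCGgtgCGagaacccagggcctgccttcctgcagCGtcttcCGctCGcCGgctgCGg
The Mest sequence shown, that of the second annotated start, holds 17 CpG and the Copg2 promoter 25, against a median of 7 over the 32851 promoters in the table. The MspI site CCGG, which reads the same on both strands and was searched without overlap, occurs 1 time in the Mest sequence and 4 times in that of Copg2. The table holds 2 more Mest promoters, which are not shown. That of the third start, 3 bp further on, also has 17 CpG, and that of the first start, chr6:30733256-30733555, has 8 CpG and 0 CCGG. Of all promoters of this length, 52.8% hold it.

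The core shared by Peg10 and Sgce was intermediately methylated in every library. Its mean over the 14 rows ran from 48.8% in HFD male 3 over a median of 56.8% to 64.7% in HFD male 4 among HFD offspring. Among RD offspring it ran from 64.6% in RD female 1 over a median of 68.0% to 78.8% in RD male 2. Of the 6 HFD samples, 5 lay below every RD sample, and HFD male 4 lay just above RD female 1. The means were 57.1% ± 5.75 in HFD and 69.5% ± 4.98 in RD (SD, n = 6 each), a difference of -12.4 percentage points. RD female 1 had no value at position 4747419, and over the 13 rows with 12 values the diets did not overlap, the highest HFD sample having 63.5% and the lowest RD sample 64.6%. Over all 500 bp tiles tested, all HFD samples lay below all RD samples in 0.471%, and in tiles with a mean of 20 to 80% in 0.798%. Among 31 such tiles of other genes with a maternally methylated germline region, the same held for 5 (16.1%), of Plagl1, Zrsr1, Peg13 and Gnas. Leaving out any 1 sample gave differences of -13.9 to -10.5 points over the 14 rows.

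**Figure D1:**
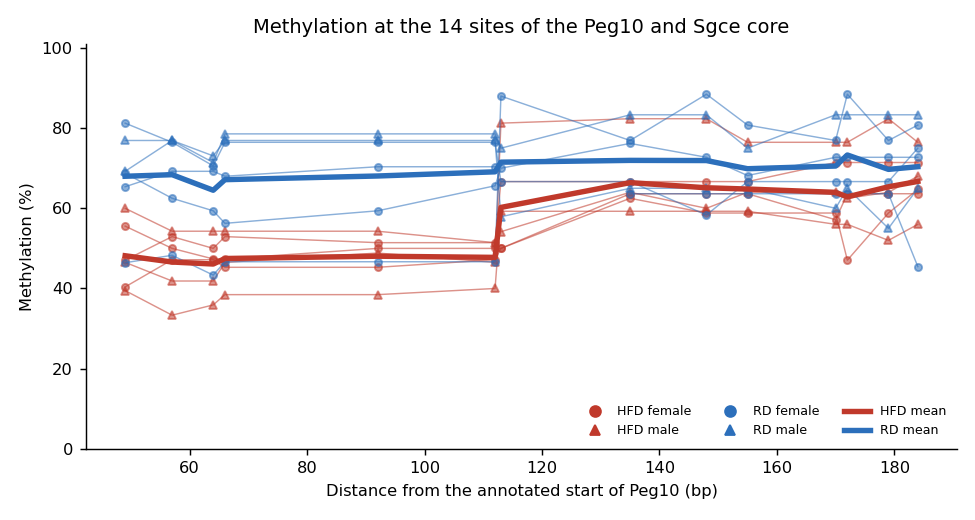
Percent methylation (vertical axis) at the 14 sites of the core shared by Peg10 and Sgce against the distance from the annotated start of Peg10 in bp; thin lines are single samples (red HFD, blue RD, circles females, triangles males) and thick lines the diet means. The HFD mean steps up from 47.8% to 60.2% between 2 rows that lie 1 bp apart, and the red and blue means are farther apart left of that step than right of it.

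The core was divided into 2 stretches after the values had been seen, at a step in the HFD mean between neighbouring rows. The table lists 4747418 and 4747419 as separate rows. Deposited positions name the cytosine of either strand: in the RefSeq promoters, 48.6% of 39856 rows lay on the C and 51.3% on the G of a plus-strand CpG. Of 463 promoter row pairs 1 bp apart, 94.6% were both cytosines of 1 CpG. No sequence of the core was used here, so the strand of its rows is not given.

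In the upstream stretch, 4747355 to 4747418, the 6 rows of a sample differed little from each other, with a median range of 6.88 points within a sample. HFD females 2, 3 and 4 had stretch means of 51.0%, 50.0% and 45.4%, and HFD males 2, 3 and 4 had 54.8%, 37.6% and 45.3%. RD females 1 to 4 had 68.8%, 76.3%, 62.0% and 46.3%, and RD males 1 and 2 had 76.3% and 75.5%. All RD samples except RD female 4 lay above every HFD sample, while RD female 4 lay inside the HFD range. The means were 47.4% ± 5.97 in HFD and 67.5% ± 11.8 in RD (SD, n = 6 each), a difference of -20.2 points that was -24.4 points without RD female 4. Site by site, the HFD and RD means were 48.2% and 68.0% at 4747355, 46.6% and 68.4% at 4747363, and 46.1% and 64.5% at 4747370. They were 47.5% and 67.1% at 4747372, 48.0% and 68.1% at 4747398, and 47.8% and 69.1% at 4747418. The diet differences of these 6 rows thus lay in the narrow band from -21.8 to -18.4 points, and the diets overlapped at each of them.

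In the downstream stretch, 4747419 to 4747490, the diets lay closer together. HFD females 2, 3 and 4 had 69.0%, 57.4% and 61.1%, and HFD males 2, 3 and 4 had 62.6%, 57.1% and 79.3%. RD females 1 to 4 had 61.0%, 66.7%, 72.3% and 82.2%, and RD males 1 and 2 had 62.2% and 81.2%. The diets overlapped over most of their ranges, and RD female 4, the lowest RD sample upstream, was the highest here. The means were 64.4% ± 8.46 in HFD and 70.9% ± 9.23 in RD (SD, n = 6 each). The difference of -6.50 points was smaller than either SD and was -4.26 points without RD female 4. At 4747419 the HFD and RD means were 60.2% and 71.5%, at 4747441 they were 66.4% and 72.0%, and at 4747454 they were 65.1% and 71.9%. At 4747461 they were 64.8% and 69.9%, at 4747476 they were 64.0% and 70.5%, and at 4747478 they were 62.8% and 73.3%. The last rows had 65.4% and 69.7% at 4747485 and 66.7% and 70.4% at 4747490. All 8 rows had the lower mean in HFD, with differences from -3.67 points at 4747490 to -11.3 points at 4747419.

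The step between the stretches differed from sample to sample. The downstream stretch exceeded the upstream one in 6 of 6 HFD samples, by 7.40 to 33.9 points with a median of 16.9. It did so in 3 of 6 RD samples, where the step ran from -14.0 points in RD male 1 to 35.8 points in RD female 4. The mean step was 17.1 ± 9.72 points in HFD and 3.40 ± 18.4 points in RD (SD, n = 6 each), and the RD mean turned to -3.08 points without RD female 4. It moved by more than 1.5 times without RD female 1, 2 or 3 or RD male 1 as well, over 2.02 to 6.89 points. At the pair of rows 1 bp apart the diet difference was -21.3 points at 4747418 and -11.3 points at 4747419, 10.1 points apart. Over the 1553 autosomal row pairs of this kind with a mean of 20 to 80%, the median of that distance was 5.82 points, and 26.0% of pairs had one at least as large as at Peg10.

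**Figure D2:**
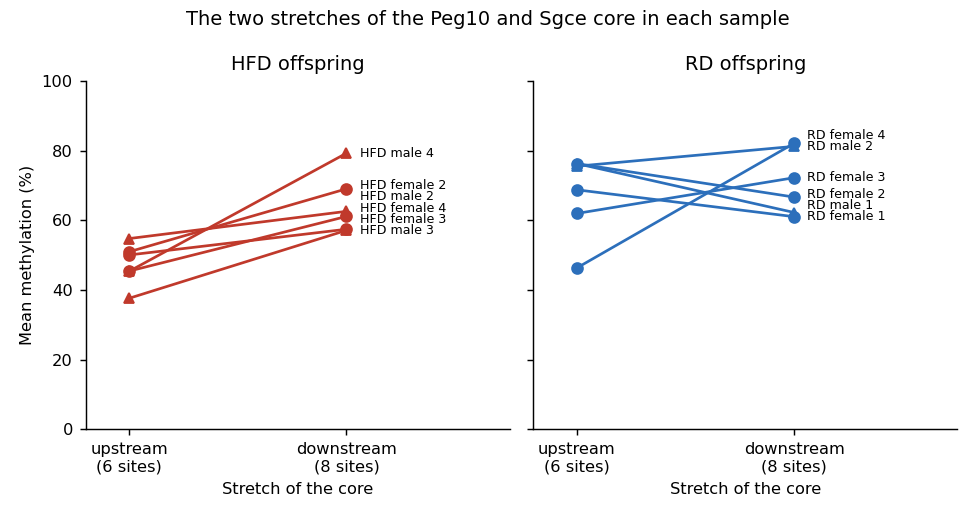
Mean percent methylation (vertical axis) of the upstream and downstream stretch of the core in each sample, joined by a line, for HFD offspring on the left and RD offspring on the right (circles females, triangles males). Every HFD line rises, whereas 3 of 6 RD lines rise and RD female 4 goes from the lowest RD value, 46.3%, to the highest, 82.2%.

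Away from the core, Peg10 and Sgce were highly methylated. The 5 rows within Peg10 averaged 92.8% ± 1.65 in HFD and 92.1% ± 1.65 in RD (SD, n = 6 each), with samples from 89.8% to 94.1% in HFD and from 89.6% to 94.0% in RD. Their diet difference of 0.752 points was smaller than the SD, and the diets overlapped almost wholly. It was 0.248 points without RD male 1, 0.491 without HFD male 2, 1.14 without RD female 2 and 1.37 without HFD female 4. Within Sgce, the 6 rows averaged 84.7% ± 6.73 in HFD and 86.5% ± 4.32 in RD (SD, n = 6 each), a difference of -1.84 points within the spread. It lay between -0.607 points without HFD female 4 and -4.13 points without HFD male 4. It also moved by more than 1.5 times without HFD female 2 or 3, RD female 1, or RD male 1 or 2. The 4 rows with 12 values averaged 89.1% ± 5.67 in HFD and 93.1% ± 2.65 in RD. The other 2 Sgce rows, 4733631 and 4733688, had no value in HFD males 3 and 4 and averaged 63.0% and 79.5% over the remaining samples. Sgce therefore held a lower-methylated position, 4733631, beside rows of 79.5 to 95.3%.

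**Figure D3:**
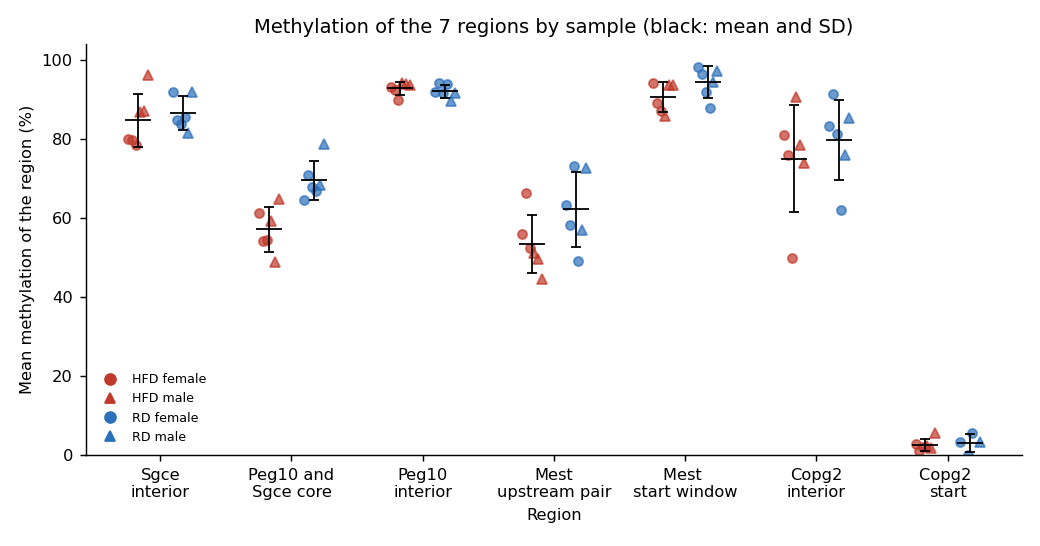
Mean percent methylation (vertical axis) of the 7 regions of Peg10, Sgce, Mest and Copg2 (horizontal axis); each point is a sample (red HFD, blue RD, circles females, triangles males), black marks are the mean and SD of a diet. The core and the Mest upstream pair lie in the middle of the scale, the Mest start window and the gene interiors lie high, and the Copg2 start lies near 0.

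At Mest, the pair of rows 2720 bp or more before its second annotated start was intermediately methylated. HFD samples ran from 44.6% in HFD male 4 over a median of 51.8% to 66.4% in HFD female 3. RD samples ran from 49.1% in RD female 4 over a median of 60.7% to 73.0% in RD female 3. The diets overlapped over much of their range. The means were 53.4% ± 7.38 in HFD and 62.2% ± 9.43 in RD (SD, n = 6 each), a difference of -8.83 points that was about as large as the spread between samples and lay between -11.4 and -6.66 points without any 1 sample.

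The 16 rows after the second Mest start stood far above the middle of the scale in every library. HFD samples ran from 85.7% in HFD male 2 over a median of 91.3% to 94.2% in HFD female 2. RD samples ran from 87.8% in RD female 4 over a median of 95.5% to 98.3% in RD female 1. The diets overlapped between 87.8% and 94.2%, a range that held 4 of 6 HFD and 2 of 6 RD samples. The means were 90.6% ± 3.75 in HFD and 94.4% ± 3.94 in RD (SD, n = 6 each), and the difference of -3.81 points was about as large as these SDs. All 16 rows had the lower mean in HFD, with differences from -4.87 to -0.559 points. Neighbouring rows can share reads, so their common direction is not 16 separate observations.

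Mest rows also formed 2 stretches. The first 7, 30738074 to 30738133, averaged 87.3% ± 4.71 in HFD and 91.2% ± 6.04 in RD, and the last 9, 30738317 to 30738388, averaged 93.1% ± 4.38 and 96.8% ± 2.43. Unlike at Peg10, the diet differences of the stretches were nearly equal, at -3.90 and -3.74 points, though the difference between the genes was not tested. The first was -2.59 points without RD female 1, and the second was -2.11 points without HFD male 2, whose second stretch stood at 84.9% against 91.3 to 96.2% in the other HFD samples. The lowest mean of the window was 88.0%, at 30738133, where HFD had 85.6% ± 6.25 and RD 90.4% ± 6.86. The highest was 98.8%, at 30738381, where HFD had 98.6% ± 1.93 and RD 99.1% ± 0.795 (SD, n = 6 each).

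**Figure D4:**
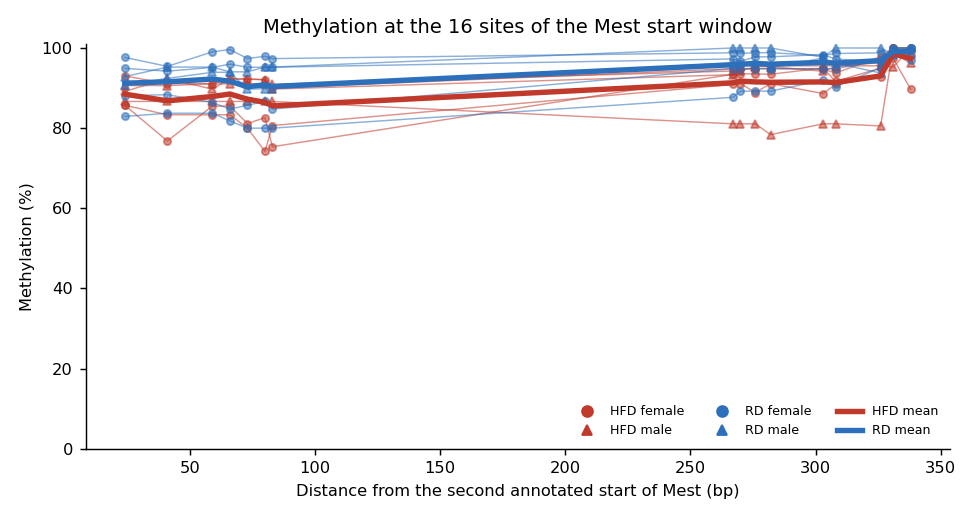
Percent methylation (vertical axis) at the 16 sites of the Mest start window against the distance from the second annotated start of Mest in bp; thin lines are single samples (red HFD, blue RD, circles females, triangles males) and thick lines the diet means. Both means stay above 85% along the window and meet near 99% at its right end.

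Copg2 showed both ends of the scale. Its interior row at 30804776 had 75.0% ± 13.5 in HFD and 79.8% ± 10.1 in RD (SD, n = 6 each), with HFD female 4 at 50.0% the lowest. The difference of -4.85 points was well within the spread. It was 0.152 points without HFD female 4, -7.94 without HFD male 2, -2.55 without RD female 2 and -8.43 without RD female 4. The 3 rows at the Copg2 start averaged 2.65% ± 1.56 over 6 HFD samples and 3.06% ± 2.29 over 4 RD samples (SD), RD female 2 and RD male 1 having no values there. Listed values at those rows ran from 0 to 16.7%, the latter at 30896419 in RD female 4.

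Of the 47 rows, 36 had 12 values and a mean rate of 5 to 95%, the limits of the fit over 157524 autosomal positions. Of the other 11 rows, 7 had a missing value and 4 had a mean above 95%. Between the diets, 0 of the 36 rows passed an adjusted p-value of 0.05 (limma), against 0.00825% of all positions called lower in HFD. Before adjustment, 8 of the 36 rows were under 0.05 with a lower HFD mean (limma), against 3.66% of all positions, and 17 were without RD female 4. In the other direction 0 of the 36 were under 0.05, against 2.88%. Of the 8, 6 were the upstream stretch of the core, whose rows can share reads, 1 was in Sgce and 1 in Mest. At 0 of the 36 did all HFD samples lie below all RD samples, which held at 0.335% of all positions and at 0.594% of those with a mean of 20 to 80%. The reverse order held at 0 of the 36, against 0.147%. A mean at least 10 points lower in HFD was found at 7 rows, against 2.77% of all positions. The HFD mean was lower at 34 of 36 rows, against 52.9% of all positions, and the median difference over all positions was -0.259 points. Of 4 member tiles, 3 had the lower mean in HFD against 53.3% of 23776 tiles, and 0 passed the adjusted threshold (limma), which 0.0294% did. The core tile was 1 of 4 under 0.05 before adjustment with a lower HFD mean (4.64% of all tiles), and 0 of 4 were so with a higher one (3.17%). The count with a lower mean was 2 of 4 without HFD female 2, HFD female 3, HFD male 4, RD female 3, RD female 4 or RD male 1, each left out alone. It was also the 1 tile at least 10 points lower in HFD, against 0.946% of all tiles. Because the diet comparison helped to choose these genes, nothing is read from these counts.

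Pooled over the diets, females and males did not differ beyond the spread between samples at the core or at the Mest start window. The core averaged 62.9% ± 6.51 in 7 females and 64.0% ± 11.1 in 5 males (SD). Sex labels were permuted inside each diet in all 300 possible ways, so that the smallest p is 0.00333. The difference of -1.10 points had a two-sided exact p = 0.787, and 0.787 adjusted over both regions. The Mest start window averaged 92.1% ± 4.38 in females and 92.9% ± 4.32 in males (SD), a difference of -0.826 points (exact permutation test, p = 0.727, adjusted p = 0.787). RD samples were a larger share of the females than of the males, so both pooled differences carry part of the diet difference. Their p-values do not measure the sex difference inside a diet. At the core, females and males had 56.7% and 57.6% in HFD, and 67.5% and 73.5% in RD. At the Mest window they had 90.1% and 91.0% in HFD, and 93.6% and 95.9% in RD. At single rows, 0 of 36 passed for sex with limma, as 0 of 157524 positions did (0.0%), and 1 of 36 was under 0.05 before adjustment, against 5.3% of all positions, and 0 were without RD male 2. That row, 4733820 in Sgce, had 79.7% ± 8.08 in females and 88.6% ± 6.34 in males (SD, n = 7 and 5; limma adjusted p = 0.923). Among the 4 tiles, 0 passed for sex with limma, against 0.0168% of all tiles, and 0 were under 0.05 before adjustment, against 5.56%, and 1 was without HFD male 3.

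The diet difference was then set side by side in the sexes. At the core, HFD females had 56.7% ± 4.02 (SD, n = 3) and RD females 67.5% ± 2.57 (SD, n = 4). HFD males had 57.6% ± 8.11 (SD, n = 3) and RD males 73.5% ± 7.46 (SD, n = 2). The diet difference was -10.9 points in females and -16.0 points in males. In the upstream stretch it was -14.5 points in females, where RD female 4 lay at HFD levels, and -30.0 points in males. In the downstream stretch it was -7.99 points in females and -5.41 points in males, and single samples decided both values. The female value was -4.11 points without RD female 4. The male value was 4.09 points without RD male 2, -0.815 without HFD male 3, -3.54 without HFD male 2, -11.9 without HFD male 4 and -14.9 without RD male 1. At the Mest upstream pair the difference was -2.65 points in females and -16.3 points in males. The female value was 1.39 points without RD female 3, 0.253 without HFD female 4, -1.47 without HFD female 2, -6.57 without RD female 4 and -6.73 without HFD female 3. The male value was -8.39 points without RD male 2. At the Mest start window it was -3.48 points in females and -4.91 points in males. The female value was -1.92 points without HFD female 4 or without RD female 1, -5.41 without RD female 4 and -5.52 without HFD female 2, and the male value was -2.26 points without HFD male 2. In 3 regions the sexes had opposite signs over the rows with a value, and single samples moved most of these values by more than 1.5 times or turned them. The female value within Sgce and the male value within Peg10 did not move that far. The difference was -7.13 points in females and 3.42 points in males within Sgce. The male value was -1.74 points without RD male 1 and 8.59 points without RD male 2. HFD males 3 and 4 had no value at the 2 Sgce rows with the lowest means. The positive male value therefore mixes unlike rows. At the Sgce rows with a value in every sample, the male difference was -4.12, 3.10, -1.71 and -3.77 points. Within Peg10 the difference was -1.10 points in females and 3.36 points in males. The female value there lay between -1.80 points without HFD female 2 and -0.107 points without HFD female 4. At the Copg2 interior row the difference was -10.4 points in females and 0.342 points in males. The female value there was -0.908 points without HFD female 4. The male value lay between -4.42 points without HFD male 2 and 5.03 points without RD male 2. The interaction of diet and sex was 0.42 ± 0.36 (SE) on the log2 ratio scale at the core tile (limma adjusted p = 0.989) and 0.16 ± 0.57 at the Mest tile (limma adjusted p = 0.995). The standard errors are nearly as large as or larger than the estimates, so a difference between the sexes of this size was not detectable. For the interaction, 0 of 36 rows and 0 of 4 tiles passed with limma, as did 0.0% of all positions and tiles. Before adjustment 1 row was under 0.05, against 5.11% of positions, and 0 tiles were, against 5.1%. The count of rows was 0 without HFD female 3, HFD female 4, HFD male 4, RD female 3 or RD male 2, and 2 without HFD male 2 or RD female 2, each left out alone. The row was 4755947 in Peg10, where the diet difference was -2.47 points in females and 8.20 points in males (limma adjusted p = 0.972).

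Neighbouring genes of the same domains gave few intermediate tiles. Of 8 listed neighbours of Peg10, 2 had a tile with a mean of 20 to 80%, and neither was lower in HFD. Ppp1r9a, which encodes a neuronal scaffold protein, had 76.8% ± 3.45 in HFD and 74.0% ± 2.69 in RD, and Pon2, a lactonase, had 69.0% ± 5.80 and 64.2% ± 5.47 (SD, n = 6 each). Of 6 listed neighbours of Mest, Cpa1, Cpa4 and Cep41 had 4 such tiles, 3 of them lower in HFD. Cpa1, a digestive carboxypeptidase, had 45.0% ± 11.4 in HFD and 55.2% ± 11.7 in RD. Cpa4, another carboxypeptidase, had 72.1% ± 8.18 and 70.2% ± 6.60, and Cep41, a centrosomal protein gene, had 62.7% ± 4.79 and 65.8% ± 3.88. In all of these genes the difference between the diets was smaller than the sum of their SDs. Among 14 genes elsewhere with a maternally methylated germline region, 12 had 31 intermediate tiles. The median difference was -4.60 points, against -0.489 over all 9021 such tiles, and 25 of the 31 were lower in HFD (80.6%, against 56.3%). With limma, 2 of the 31 passed with a lower HFD mean, against 6 of the 9021, with p-values adjusted over all 23776 tiles. Adjusted over the 9021 alone, 18 of them passed with a lower HFD mean. The 2 of the 31 that passed with adjustment over all 23776 tiles were a tile of Zrsr1, a splicing factor gene, and one of Peg13, a noncoding RNA gene. The 4 Zrsr1 tiles averaged 57.8% ± 4.98 in HFD and 66.7% ± 3.68 in RD, and the single Peg13 tile 46.4% ± 4.26 and 69.1% ± 4.81 (SD, n = 6 each). The list was written with earlier results of these data known.

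**Figure D5:**
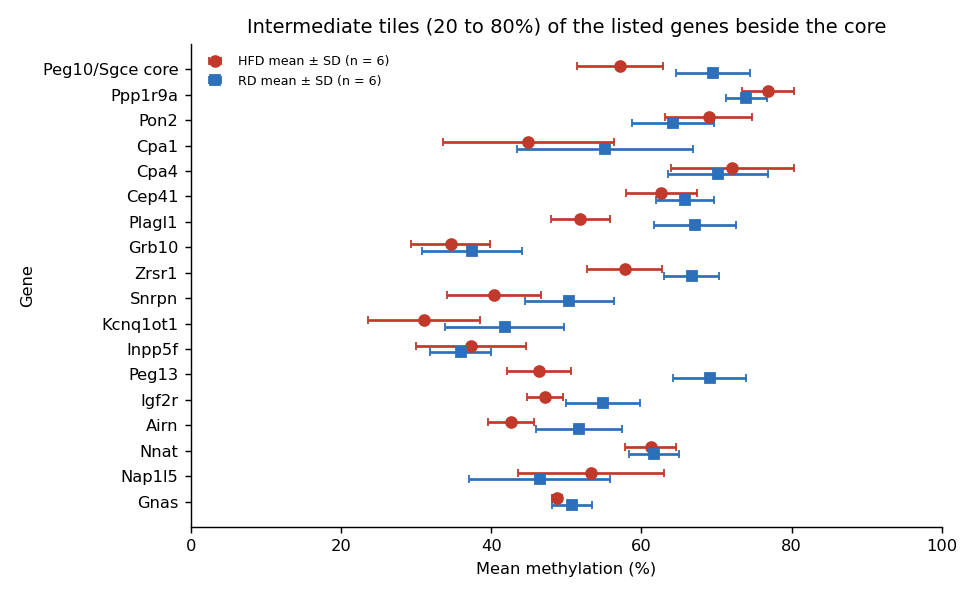
Mean percent methylation (horizontal axis) with SD over 6 HFD (red) and 6 RD (blue) samples for the core shared by Peg10 and Sgce, and for the tiles with a mean of 20 to 80% in each listed gene (vertical axis). The core, at 57.1% and 69.5%, is shown beside its neighbours Ppp1r9a and Pon2, whose red means lie to the right of the blue ones.

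Tiles elsewhere with the most similar levels were sought by the mean absolute difference from the core over the 12 samples, leaving out the 4 member tiles. Over 38429 tiles its median was 31.8 points. The closest was a tile inside Gfod2 at chr8:105728011-105728080, 4.03 points from the core, with 62.7% in HFD and 70.2% in RD. Next came chr5:120241717-120241801, nearest to Gm31836, at 4.24 points, and a tile inside Palm at chr10:79807638-79807684, at 4.28 points. Then followed chr17:3055204-3055236, nearest to Gm5479, at 4.28 points and a tile inside Ptpn20 at chr14:33589306-33589379, at 4.39 points. All 5 had the lower mean in HFD, by 3.63 to 10.8 points, and likeness to the core includes its diet difference.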

How the data were processed

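Left ventricle DNA of 12 mice was read by RRBS. The authors deposited 1 table of percent methylation with a row per cytosine position and a column per sample, per the file headers. The submitters' processing notes name FastQC, Trim Galore, Bismark 0.19, limma and the build mm10. The authors' coverage minimum and filters are not given in the sources used here, and the table has no coverage, so no coverage minimum could be tried. Each column matched 1 sample, and samples were grouped by the diet and sex in the labels.

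The members and lists were chosen with earlier results of these data known. Region levels are means over the rows with a value. The Mest window was planned around the lower annotated end of the gene, but no row lay within 1000 bp of it, so all annotated Mest starts were used. The quantity tested was log2((rate + 0.05)/(1 − rate + 0.05)), fitted with limma 3.58.1 (R 4.3.3) over all autosomal positions, or 500 bp tiles of at least 3 positions, with 12 values and a mean of 5 to 95%. Diet and sex were additive terms, the interaction came from 4 group means, and the two-sided p-values were corrected over all features after Benjamini and Hochberg. Two-sided exact permutation tests compared the sexes by means pooled over the diets, with sex labels permuted inside each diet. All 4 members were described, with every core row, the highest and lowest Mest row, the smallest p for sex and interaction, and the 5 most similar tiles. The limma fit on tiles and the permutation test were checked on simulated data. Figures were drawn with matplotlib 3.10.9.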

Additional observations from a re-analysis of the deposited data

Results flagged for a closer look

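Of the samples, 1 stood apart from the rest of its diet group, at 2 rows, by Dixon's test at the 95% level, which sets a sample's distance from its neighbour against the range of the group. The test was made on 58 groups of values, of which about 2.9 would be picked by chance. Both rows concern HFD male 4 in the downstream stretch of the Peg10 and Sgce core. At position 4747441 it had 82.4% against 59.3 to 66.7% in the other HFD samples, and at position 4747454 it had 82.4% against 58.8 to 66.7%. These rows are close enough to share reads, so they are not separate observations. HFD male 4 also had the fewest positions with a value, 385299, and the part of this in both values was not tested.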

How the results depend on the processing

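The number of member rows and tiles past the adjusted threshold for diet, sex and the interaction was 0 under each alternative run: another offset, untransformed rates, other limits on the mean rate, trend and robust variances, missing values, tiles of 1000 bp, no sex term and leaving out each sample. The smallest limma adjusted p among member rows for diet ran from 0.121, without RD female 4, to 0.817. The core diet difference stayed between -13.9 and -9.77 points and the Mest window difference between -5.13 and -2.61 points. The sex differences pooled over the diets never passed, with exact permutation p-values from 0.113 at the core and 0.247 at the Mest window upward. Their sign changed in some settings (-4.90 to 2.61 points at the core, -2.64 to 0.257 at Mest). Deviations of same-numbered samples from their group means correlated at -0.0568 to 0.0197 over tiles, and those of different-numbered samples at -0.0986 to 0.117. With so few samples in a group, these values cannot exclude a pairing by replicate number. With the replicate block the core difference was -13.8 points and the Mest difference -2.61 points, and 0 member rows or tiles passed for diet, sex or the interaction (limma). Over all features the block lowered the diet calls from 16 to 0 positions and from 7 to 3 tiles, and the sex calls from 4 to 0 tiles. These counts over all features moved in other settings too. Diet calls were 78 positions with untransformed rates and ran from 0 positions without RD male 1, HFD male 3, HFD male 2 or HFD female 2 to 22 without RD female 4. Lower diet tiles were 16 with untransformed rates and ran from 3 to 11 over the samples left out, and sex tiles ran from 0 to 5. A coverage minimum was not run. Depth is unknown, which limits every single value.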
